A study of Homo sapiens with 4 samples.

Results

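F-box proteins are the substrate-binding subunits of SCF ubiquitin ligases, and their genes were examined here for peaks of the forkhead transcription factor FOXK2. The members were all peaks whose deposited gene name was FBXL, FBXO or FBXW followed by a number, except FBXO32. They numbered 22 of 12471 peaks in replicate 1 and 62 of 27281 peaks in replicate 2, or 84 of 39752 peaks in all. These peaks were named for 37 genes, out of 14631 genes named in the lists. The rule used gene names alone, but it was chosen with earlier results of these data known. FBXO32, the gene it leaves out, had the peak at rank 1 in both lists.

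The data were FOXK2 ChIP-seq of OVCAR5, a human high-grade serous ovarian cancer cell line grown in RPMI medium with serum at passage 4-6. There were 2 biological replicates of this condition, unmodified as far as the labels say, and 2 input libraries that were not analysed here. HOMER, a peak finder, called peaks in each replicate separately on hg38, with a fixed distance from peak start to peak end of 210 bp for replicate 1 and 256 bp for replicate 2. It named each peak for the gene with the nearest transcription start site (TSS), which need not be the gene that the peak acts on. Distances to a TSS are those of the deposited annotation unless GENCODE is named, and GENCODE places a start of the same gene nearer to some of the peaks.

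In an SCF complex, the cullin CUL1 is a scaffold that carries the RING protein RBX1 at its far end and the adaptor SKP1 at the other. SKP1 holds the F-box motif of an F-box protein, whose second domain binds the substrate: leucine-rich repeats in the FBXL family, WD40 repeats in the FBXW family and various folds in the FBXO family. Exchange of the F-box subunit changes which protein is marked with ubiquitin, and well-known substrates include cyclins, inhibitors of signalling and transcription factors.

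FOXK2 recognises the forkhead heptamer TGTTTAC. It was searched on both strands, and the sequences that carry the sites of overlapping F-box peaks are shown first because they connect the peaks to this motif. The exact heptamer lay inside the stretch common to both replicates in 7 of 18 overlapping pairs of peaks named for F-box genes, and in a promoter pair at FBXO8. Within 100 bp of the centre it was in 38.9% of overlapped F-box peaks in each replicate, near the 34.3% and 34.9% of all overlapped peaks in replicates 1 and 2. The 29 bases around each site are given from hg38, 5′ to 3′ on the strand that reads TGTTTAC, with the heptamer in capitals.
FBXO47: atactgtggctTGTTTACttagtaatttc
FBXO31, stronger peak: caatacttgttTGTTTACttgctctcaag
FBXO31, weaker peak: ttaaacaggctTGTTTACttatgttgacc
FBXL4: cggctcagggtTGTTTACaccgcggggga
FBXL22: ccatgcccactTGTTTACattattgtctg
FBXL17, intron 4: ggaagtaaagtTGTTTACattcctgacct
FBXL17, intron 5: ctcagtggcttTGTTTACactgtgagctt
FBXO8 promoter: tttatttctgtTGTTTACgattcgctata
The FBXO47 stretch was chr17:38983222-38983250 (minus strand), the FBXO31 stretches were chr16:87388389-87388417 and chr16:87379409-87379437 (both plus), and the FBXL4 stretch was chr6:98947491-98947519 (minus). The FBXL22 stretch was chr15:63587680-63587708 (minus), the FBXL17 stretches were chr5:108259452-108259480 and chr5:108213076-108213104 (both plus), and the FBXO8 stretch was chr4:174283711-174283739 (plus).

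Of these pairs, the 1 at FBXO47 had the highest mean percentile over both lists. The stretch of 211 bp common to both of its peaks, 36.0% G/C, is shown whole from hg38 (chr17:38983139-38983349, plus strand), with the heptamer, here on the other strand, in capitals.
FBXO47 whole stretch: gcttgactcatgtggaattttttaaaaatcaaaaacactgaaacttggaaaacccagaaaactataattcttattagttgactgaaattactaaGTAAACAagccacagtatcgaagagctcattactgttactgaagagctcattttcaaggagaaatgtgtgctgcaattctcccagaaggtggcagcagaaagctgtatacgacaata

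Of the plotted F-box genes with peaks in both replicates, 9 had best peaks at score percentiles of 86.9 or more in both lists. That cutoff is the lowest percentile among these 9 genes. The share of all genes that reach such percentiles was not computed, so the count cannot be compared with other genes. Overlapped peaks as a whole had median percentiles of 59.7 and 77.9 in replicates 1 and 2. These medians are over single peaks and not over the best peak of each gene. GENCODE release 44 holds 61 protein-coding genes with such symbols, and 15 of them (24.6%) had a peak in both replicates, beside 28.0% of 20020 protein-coding genes. A peak in either replicate was found for 37 of the 61 (60.7%), beside 53.2% of protein-coding genes. The share of F-box genes was thus the lower of the 2 for both replicates and the higher for either, and neither difference was tested. Peaks in replicate 1 alone were found for FBXO36 and FBXO45 (3.28% of the 61), beside 2.63% of protein-coding genes, and peaks in replicate 2 alone for 20 genes (32.8%), beside 22.6%. These differences were not tested either. No peak in either list was named for 24 genes, among them FBXW7, whose product targets cyclin E and MYC, FBXL5, an iron sensor, and FBXO7, which acts in mitophagy. By family, 6 of 17 FBXL genes, 8 of 35 FBXO genes and 1 of 9 FBXW genes had a peak in both replicates.

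**Figure D1:**
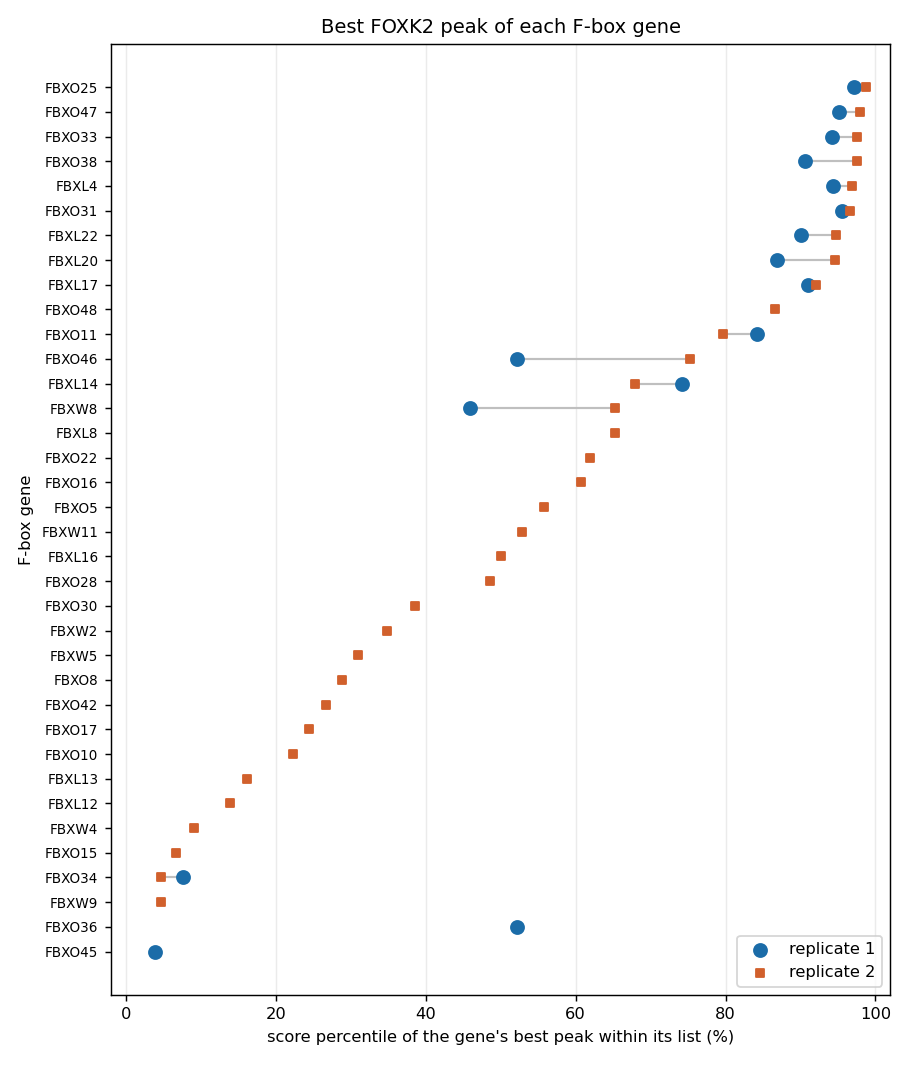
The score percentile (x axis, %) of the best peak is shown for 36 F-box genes with a peak (y axis), with circles for replicate 1, squares for replicate 2 and a line where both were present. At the top, 9 genes with both symbols reached percentiles of 86.9 or more in both replicates, while most genes with a square alone lay below 70.

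Scores are scaled within each library, so each peak is given by its score percentile, the percent of the other peaks in its list with a lower score, with ties split evenly. The median percentile of F-box peaks was 79.2 in replicate 1 and 51.4 in replicate 2. The median over all peaks lies near the middle of a list by construction. In replicate 1, 18 of 22 F-box peaks (81.8%, Wilson 95% interval 61.5% to 92.7%) shared bases with a replicate 2 peak (1 bp or more), beside 74.9% of all peaks. In replicate 2, 18 of 62 (29.0%, 19.2% to 41.3%) were overlapped, beside 34.2%. Both intervals included the share of all peaks, and such intervals cover counting error only. Overlapped F-box peaks had median percentiles of 88.5 and 93.3, and those without a partner had 9.86 (4 peaks) and 32.9 (44 peaks). Among all peaks, the overlapped ones had medians of 59.7 and 77.9, and those without a partner 26.7 and 34.8. These medians describe the lists and were not tested.

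**Figure D2:**
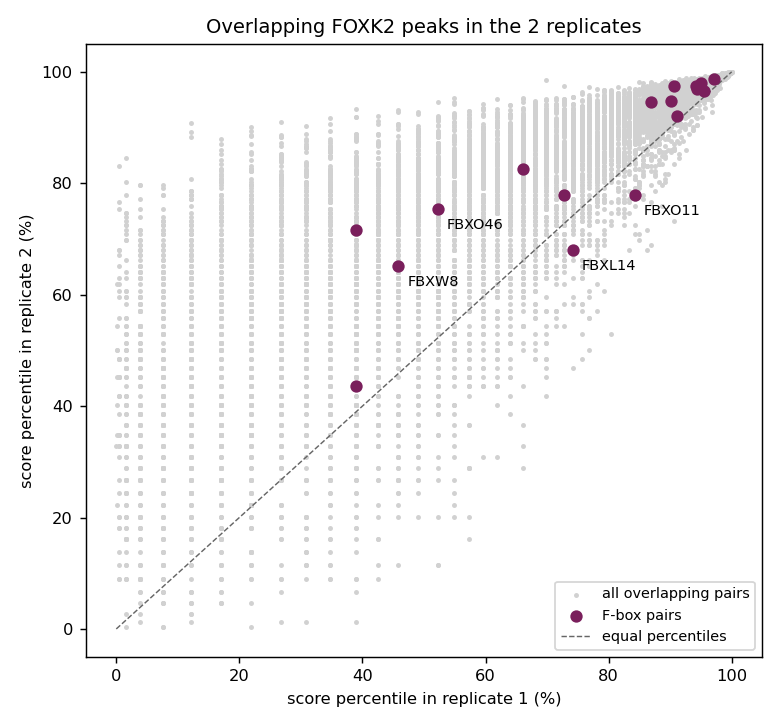
Each purple point is 1 of 17 overlapping pairs named for F-box genes, at its score percentile in replicate 1 (x axis, %) and replicate 2 (y axis, %), over all 9343 overlapping pairs in grey, with a dashed line of equal percentiles. Of the F-box pairs shown, 15 lie above the line, as do 8348 of all pairs.

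The 18 pairs belonged to 14 genes, and their centres lay a median of 25 bp apart, with 148 bp at most (29 bp over all pairs). FBXO34 had a peak in each list as well, but these lay in intron 1 at 37217 bp and 64028 bp from the TSS and did not overlap. Their percentiles were only 7.54 and 4.64. The following genes are given by what their products are known to do.

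FBXW11, which recognises β-catenin and IκB, had peaks in replicate 2 alone. They were a promoter peak with a score of 7.58 (percentile 52.9) and a pair of neighbouring intron 1 peaks at 6.99 and 7.29, each with the heptamer.

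Among 8 genes listed for the turnover of cell cycle regulators and oncoproteins, FBXO31, FBXO11 and FBXW8 had peaks in both replicates (37.5%, beside 28.0% of protein-coding genes, not tested). FBXO31, which targets cyclin D1, had an intron 2 peak with scores of 15.5 (rank 541, percentile 95.6) and 24.5 (rank 908, percentile 96.6), both centred 3691 bp downstream of the TSS in the deposited annotation and 1434 bp from the nearest FBXO31 TSS in GENCODE. In GENCODE the centre of this peak also lay inside the neighbouring gene MAP1LC3B. The other shared FBXO31 peak scored 7.17 (percentile 66.1) and 12.8 (percentile 82.6) and lay in an LTR22A retroelement. Both held TGTTTAC. FBXO11, which targets BCL6, had a promoter peak 903 bp and 859 bp upstream of the TSS with scores of 9.81 (percentile 84.2) and 11.5 (percentile 77.9). FBXW8, which works with CUL7, had a promoter peak of moderate rank, with scores of 5.66 (percentile 45.8) and 9.07 (percentile 65.2), and 3 further intron 1 peaks in replicate 2 alone. FBXO5, also called EMI1, an inhibitor of the anaphase-promoting complex, had 2 peaks in replicate 2 alone, with its promoter peak at 7.88 (percentile 55.8). FBXW5 had a replicate 2 promoter peak at 5.65 (percentile 30.9), 35 bp from its TSS. In GENCODE the centre of this peak lay 19 bp from an FBXW5 TSS and 466 bp from the TSS of C8G. FBXW7, FBXO4 and FBXL2 had no peak named for them.

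Genes for the turnover of transcription and chromatin factors included FBXL14, which targets SNAI1, and FBXO22, which targets KDM4 demethylases. Of the 5 listed, FBXL14 and FBXO11 had peaks in both replicates (40%, beside 28.0% of protein-coding genes, not tested). FBXL14 had a promoter peak with scores of 8.11 (percentile 74.2) and 9.52 (percentile 68.0), 482 bp and 528 bp upstream of the TSS. FBXL14 and FBXO11 were the 2 pairs with a lower percentile in replicate 2 than in replicate 1. FBXO22 had 3 peaks and FBXO42 had 1, all in replicate 2 alone. No peak was named for FBXL19, although a replicate 2 peak at 8.63 (percentile 61.9) was named for its antisense gene FBXL19-AS1.

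FBXL4, a mitochondrial protein that restrains mitophagy, had an intron 1 peak in a CpG island with scores of 14.3 (rank 690, percentile 94.4) and 25.4 (rank 834, percentile 96.9), 487 bp and 523 bp from the TSS. It held the exact heptamer, which the pairs at FBXO25 and FBXO33, also near a TSS, did not. FBXO25, a muscle-expressed relative of FBXO32, had a peak in the 5′ UTR of exon 1 with scores of 18.5 (rank 350, percentile 97.2) and 35.5 (rank 355, percentile 98.7). FBXO33 had a 5′ UTR peak 290 bp and 291 bp from the TSS with scores of 14.1 (rank 716, percentile 94.2) and 27.5 (rank 681, percentile 97.5). It had 4 further peaks in replicate 2 alone, from 209026 bp to 731703 bp upstream. Of the muscle list, FBXO30 had a promoter peak in replicate 2 alone at 6.25 (percentile 38.5) and FBXO40 had none. Of 5 glycoprotein-binding F-box genes, only FBXO17 had a peak, in replicate 2 at 5.21 (percentile 24.5). That was 20% of the list with a peak in either replicate, beside 53.2% of protein-coding genes. For a peak in both replicates the share was 0%, beside 28.0%. Neither difference was tested.

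FBXO38, which targets PD-1 in T cells, had a promoter peak 48 bp and 41 bp from the TSS with scores of 11.9 (rank 1147, percentile 90.6) and 27.5 (rank 681, percentile 97.5). FBXL20, which targets the synaptic protein RIM1, had a promoter peak with scores of 10.6 (rank 1588, percentile 86.9) and 20.5 (rank 1455, percentile 94.6). In replicate 2 it also had a peak 1036 bp upstream at 15.6 (percentile 88.9) and an intron 1 peak at 13.5 (percentile 84.6), neither overlapped in replicate 1. In GENCODE the centre of the peak at 15.6 lay 169 bp from an FBXL20 TSS. FBXO46 had a pair in an intron, 2204 bp and 2308 bp before the nearest TSS, which lies inside the gene, with scores of 6.04 (percentile 52.2) and 10.9 (percentile 75.3), whose centres were 104 bp apart.

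The pairs far from an F-box TSS were at FBXO47, FBXL22 and FBXL17. FBXO47, which acts in meiosis, was the nearest TSS to an intergenic peak 15842 bp and 15836 bp upstream, with scores of 14.9 (rank 603, percentile 95.1) and 29.6 (rank 552, percentile 98.0). The FBXL22 peak, 9657 bp and 9665 bp upstream of that gene, scored 11.7 (rank 1205, percentile 90.1) and 20.7 (rank 1419, percentile 94.7). It lay inside USP3, a ubiquitin-specific protease gene, 274 bp and 282 bp from a USP3 TSS in GENCODE, while the deposited annotation gave FBXL22 as the nearest gene.

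FBXL17 removes mispaired BTB-domain dimers in protein quality control. Among the genes with FBXL, FBXO or FBXW symbols, it had the most peaks over both lists together, 5 in replicate 1 and 4 in replicate 2. It was also the longest of these genes at 523064 bp. Its strongest peak lay in intron 4 in a MIRc SINE element, 122629 bp and 122648 bp from the TSS, with scores of 12.1 (rank 1091, percentile 91.0) and 17.8 (rank 2148, percentile 92.0). Its promoter pair scored 7.92 (percentile 72.8) and 11.5 (percentile 77.9) and shared only 86 bp. An intron 5 pair in an L1PA7 LINE element scored 5.28 (percentile 38.9) and 10.1 (percentile 71.7), and an intergenic pair 99505 bp and 99498 bp upstream scored 5.28 (percentile 38.9) and 6.69 (percentile 43.5). The 3′ part of the gene held 1 peak in replicate 1 and 4 in replicate 2 that were named for EFNA5. Length did not go with peaks in every case, since FBXL7 (439616 bp) and FBXW7 (215549 bp) had no peak within the gene in either list.

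**Figure D3:**
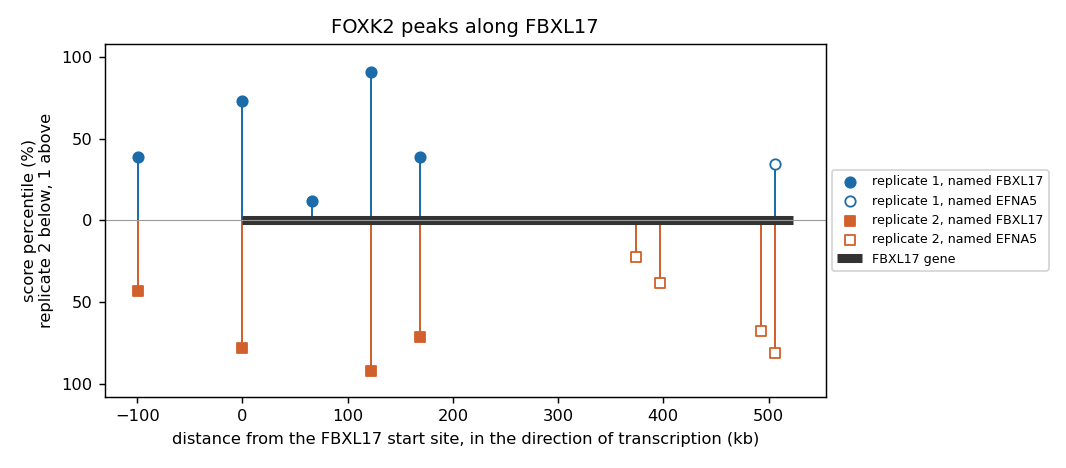
Peaks along FBXL17 are shown by distance from its TSS in the direction of transcription (x axis, kb) and by score percentile (y axis, %), replicate 1 upward and replicate 2 downward. Filled symbols are peaks named FBXL17 and open symbols peaks named EFNA5, and the bar is the gene. The tallest pair is in intron 4, at 122.629 kb in replicate 1 and 122.648 kb in replicate 2.

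F-box peaks had a shorter median distance to the TSS than all peaks. Without sign, it was 1553.5 bp in replicate 1 (16139.5 bp over all peaks). In replicate 2 it was 5750.5 bp (20161 bp over all peaks). The deposited annotation placed 7 of 22 F-box peaks in promoters in replicate 1 (31.8%, 16.4% to 52.7%), beside 21.7% of all peaks, and 22 of 62 in replicate 2 (35.5%, 24.7% to 47.9%), beside 18.0%. The interval included the share of all peaks in replicate 1 and lay above it in replicate 2, and no test was made of the difference. Among overlapped replicate 2 peaks the share was 6 of 18 (33.3%, 16.3% to 56.3%), and the interval included the 23.1% of all overlapped peaks. With lists of equal length it was 36.7% in replicate 2, beside 24.2% of all peaks. FBXL14, FBXL17, FBXL20, FBXO11, FBXO38 and FBXW8 had promoter peaks in both replicates. Introns held 9 (40.9%) and 20 (32.3%) F-box peaks, beside 39.0% and 40.6% of all peaks. Intergenic regions held 3 (13.6%) and 16 (25.8%), beside 34.1% and 36.5% of all peaks.

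**Figure D4:**
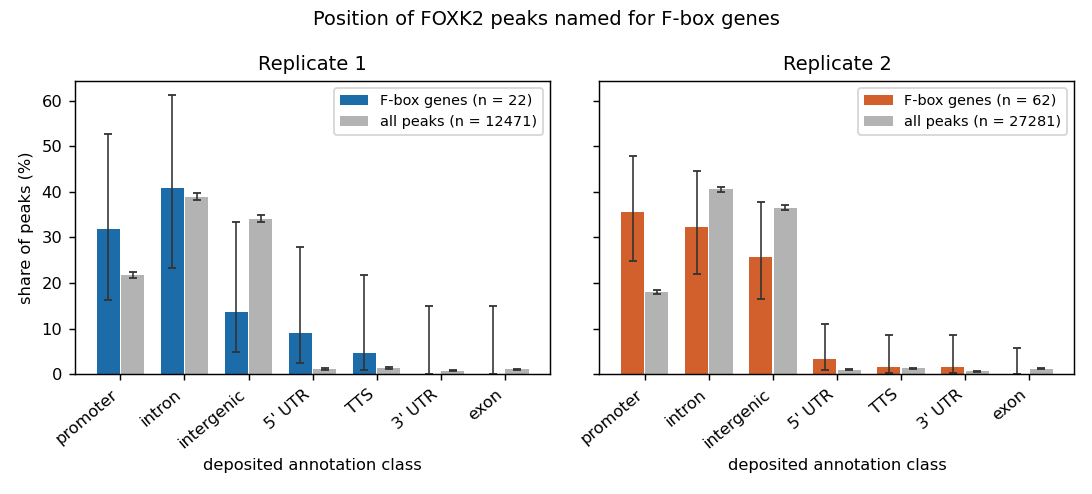
Bars give the share of peaks (y axis, %) in each deposited annotation class (x axis) for F-box genes (coloured) and for all peaks (grey), with Wilson 95% intervals as error bars. Promoters took 31.8% and 35.5% of F-box peaks and 21.7% and 18.0% of all peaks.

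The heptamer was within 100 bp of the centre of 8 of 22 F-box peaks in replicate 1 (36.4%, 19.7% to 57.0%), beside 30.5% of all peaks, and of 19 of 62 in replicate 2 (30.6%, 20.6% to 43.0%), beside 28.2%. Equally wide windows placed 2000 bp away on both sides of F-box peaks held it in 1 of 44 (2.27%) and 4 of 124 (3.23%), beside 2.88% and 2.89% of such windows around all peaks. Promoter peaks of F-box genes held it in 0 of 7 and 2 of 22 (9.09%), beside 14.4% and 10.9% of all promoter peaks, and other F-box peaks in 8 of 15 (53.3%, 30.1% to 75.2%) and 17 of 40 (42.5%, 28.5% to 57.8%), beside 35.0% and 32.0% of all peaks outside promoters, which both intervals include. With 7 promoter peaks, the interval for the 0 reached 35.4%. None of the 6 genes with promoter peaks in both replicates had the heptamer within 100 bp of the centre of these peaks. The degenerate forkhead core, a looser motif that includes TGTTTAC, was in 45.5% and 46.8% of F-box peaks and in 57.9% and 56.9% of all peaks. The AP-1 site, TGACTCA or TGAGTCA, was in 3 of 22 and 7 of 62 F-box peaks, beside 16.4% and 16.6% of all peaks. The median focus ratio, the fraction of tags on the expected side of the peak centre, was 0.745 and 0.736 for F-box peaks and 0.758 and 0.755 for all peaks.

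**Figure D5:**
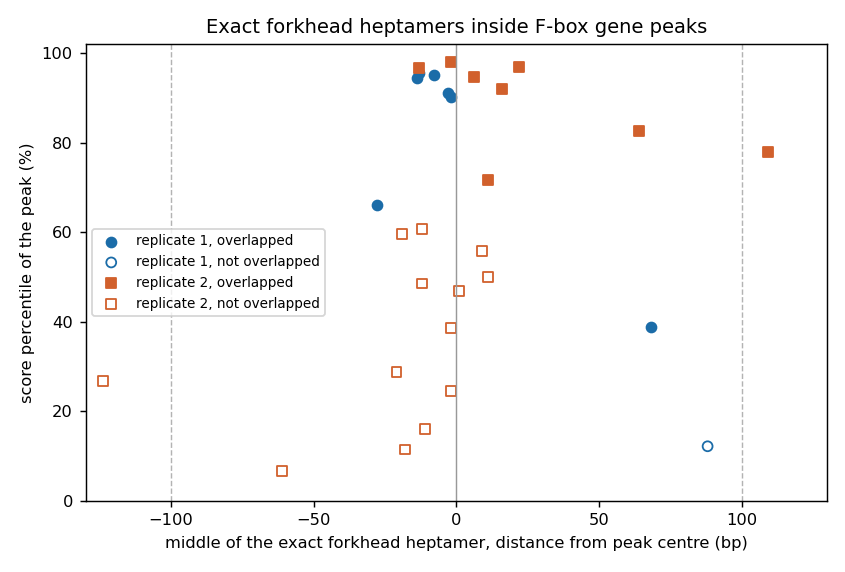
Each point is an exact heptamer inside an F-box peak, at the distance of its middle from the peak centre (x axis, bp) and the score percentile of the peak (y axis, %), with circles for replicate 1 and squares for replicate 2, filled where the peak overlapped the other replicate. Dashed lines mark 100 bp, and the points of the highest-ranked peaks lie close to 0 bp.

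Naming by the nearest TSS moved peaks between F-box genes and their neighbours. Of the peaks centred within an F-box gene in GENCODE, 9 of 23 in replicate 1 (39.1%) and 30 of 64 in replicate 2 (46.9%) were named for another gene. Over peaks within all protein-coding genes the shares were 35.4% and 37.1%, and the differences were not tested. RefSeq promoter sequences (250 bp before to 50 bp after the start, GRCh38.p14) were at hand for 48 of the 61 genes, and 6 of these promoters (12.5%, 5.86% to 24.7%) were overlapped by peaks in both replicates whichever gene was named, as were 10.3% of 15345 protein-coding promoters. The pairs over 3 of the 6 F-box promoters carried only the name of another gene. The matching share over all protein-coding promoters was not computed, so this count cannot be compared with other genes. At FBXO31 they were named MAP1LC3B, an autophagy gene that starts opposite, and scored 10.2 (percentile 85.6) and 13.1 (percentile 83.4). At FBXO45 they were named WDR53 and scored 6.60 (percentile 59.7) and 14.4 (percentile 86.7). At FBXO8 they were named CEP44 and scored 4.90 (percentile 30.8) and 12.3 (percentile 81.3), with the FBXO8 heptamer shown above inside. FBXO8 was the only F-box promoter of the 48 with TGTTTAC (2.08%), a motif found in 2.63% of protein-coding promoters, and FBXW7 had a replicate 2 peak over its promoter that was named MIR4453HG, at 5.50 (percentile 28.9).

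Other F-box genes held peaks that were named for a neighbour. An intron 2 peak of FBXL16 named WDR24 held the heptamer and scored 6.79 (percentile 61.9) and 13.4 (percentile 84.2). FBXL13, of 263651 bp, held 3 peaks in replicate 1 and 8 in replicate 2, of which only 1 in replicate 2 bore its name. After both kinds of assignment, 16 of the 61 genes (26.2%), beside 38.4% of protein-coding genes, had neither a peak named for them nor a peak within them, among them FBXL5, FBXL7, FBXO2, FBXO6 and FBXO7.

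Of the 62 F-box peaks of replicate 2, 44 had no partner in replicate 1. The highest of them was the FBXL20 peak at 15.6 given above, followed by an FBXO48 promoter peak at 14.4 (percentile 86.7), 241 bp from its TSS. In GENCODE the centre of this FBXO48 peak lay 218 bp from an FBXO48 TSS and 496 bp from the TSS of APLF. FBXO28 had 5 peaks in replicate 2 and none in replicate 1, at percentiles from 9.03 to 48.5. Among genes that the rule covers, FBXO33 (1 and 5), FBXW8 (1 and 4), FBXL20 (1 and 3), FBXO31 (2 and 2), FBXO28 (0 and 5) and FBXL17 (5 and 4) had 4 or more peaks over both lists.

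The other parts of the SCF system also had peaks. Of 30 genes for its scaffold, adaptor, conjugating enzymes, NEDD8 pathway and COP9 signalosome, 7 (23.3%) had a peak in both replicates, beside 28.0% of protein-coding genes, 21 (70.0%) had 1 in either, beside 53.2%, and 9 had none. These differences were not tested. CDC34, a ubiquitin-conjugating enzyme of SCF, scored highest, at 10.9 (percentile 88.1) and 19.9 (percentile 94.2). COPS7B, a signalosome subunit, had a promoter peak at 7.55 (percentile 69.8) and 18.7 (percentile 93.1). The scaffold CUL1 ranked near the bottom at 3.96 (percentile 7.54) and 4.02 (percentile 6.72), RBX1 scored 3.96 (percentile 7.54) and 6.69 (percentile 43.5) at its promoter, and SKP1 had a promoter peak in replicate 2 alone at 10.6 (percentile 73.9).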

How the data were processed

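FOXK2 ChIP-seq of OVCAR5 cells was measured in 2 biological replicates of 1 condition, so no test between conditions was possible. According to the paper's methods and the submitters' processing notes, the authors mapped 50-bp reads with Bowtie2 2.2.6 to hg38 and called peaks with HOMER 4.10. Whether the input libraries served as control when HOMER called each list is not stated in the text of the methods, although the supplement compares a peak with input. The deposited peak score was compared only by rank within its own list, and the deposited focus ratio, a fraction, was used only as a median. Depth is not given in the files. Scores below 10 were whole multiples of 0.18865 in replicate 1 and 0.1487 in replicate 2, to within 0.0058 score units, and the weakest peaks held 16 and 21 such steps.

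Members and lists were chosen with earlier results of these data known. Peaks overlapped at 1 bp or more, and motifs were searched within 100 bp of the centre. Promoters with sequence were checked against the genome, and 300 of 300 agreed. Named genes were the 12 with the best mean percentile of an overlapping pair, those with promoter peaks in both replicates, those with 4 or more peaks, the role lists, the SCF list and F-box genes under other symbols. A gene that the rule names is not reported here and is left out of the plots, but stays in the counts. Other genes, with peaks in replicate 2 alone or peaks named for neighbours, were chosen after their values were seen. Simulated regions with known answers were used to test how overlaps and motifs are found, with 0 errors in 2 sets of 2000 regions each. Alternatives were score, length, distance, overlap, motif and gene rules. The tools were samtools 1.23.1 and Python 3.11.15 with pysam 0.24.0, pandas 2.3.3, numpy 2.4.6, matplotlib 3.10.9 and scipy 1.17.1. The input libraries, reads and expression data were not analysed here.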

Additional observations from a re-analysis of the deposited data

How the results depend on the processing

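Of 58 alternatives tried on the main results, 44 left the value within its limits and 14 moved it. The limits were a fixed factor to each side of a count and the Wilson interval of a share. Reversal was not assessed, since counts and shares have no sign. The number of F-box peaks fell to 7 in replicate 1 with promoter peaks only, and in replicate 2 from 62 to 33 in the higher-scoring part of the list, 30 with lists of equal length, 34 within 10000 bp of the TSS and 22 with promoter peaks only. The 15 genes found in both replicates became 6 with promoter peaks only, 37 for a peak in either replicate, and 17 to 35 when only 1 replicate was used. Peaks over RefSeq promoters, an alternative chosen after seeing the data, gave 6. The overlapped share rose in replicate 1 from 81.8% to 93.75% in the higher-scoring part (all peaks 87.5%) and to 93.3% within 10000 bp (all peaks 77.4%), and in replicate 2 from 29.0% to 45.5% in the higher-scoring part (all peaks 41.5%) and to 56.7% with lists of equal length (all peaks 59.97%). The degenerate forkhead core in place of TGTTTAC gave 46.8% in replicate 2 (all peaks 56.9%). The lists with fewer peaks account for the lower counts by construction, and the cause of the other changes was not tested. Percentiles of single genes were recomputed under 69 alternatives chosen after seeing the data. With lists of equal length all 14 genes had lower percentiles, 6 of them by more than 1 SD of their 2 replicate percentiles, the most for FBXW8 (from 55.5 to 34.9), and FBXO46 went from 63.8 to 49.1. The direction follows by construction, because shortening the replicate 2 list removed only lower-scoring peaks. The other alternatives stayed within 1 SD. For leaving out 1 replicate this was fixed in advance, since 1 of 2 values always lies within 1 SD of their mean. The stricter overlap rules took percentiles from the unchanged lists, and each gene that kept a pair had its main value. Neither kind of alternative therefore says anything about the stability of the percentiles. The FBXO46 pair was lost when centres had to lie within 100 bp. No paired analysis was possible because there was 1 condition and the input libraries had no peak list here.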

Other observations

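F-box genes under other symbols were outside the rule. Of 8, BTRC, KDM2A, KDM2B and LMO7 had a peak in both replicates, CCNF had a promoter peak in replicate 2 alone at a score of 8.18 (percentile 58.3), and SKP2, NCCRP1 and LRRC29 had none. That was 4 of 8 in both replicates and 5 of 8 (62.5%) in either, beside 28.0% and 53.2% of protein-coding genes. LRRC29 is not among the GENCODE symbols behind the last 2 shares, which held 7 of the 8. LMO7, which carries a LIM domain, had 4 peaks in replicate 1 and 5 in replicate 2, with best scores of 12.1 (percentile 91.0) and 26.9 (percentile 97.3). KDM2A, a histone demethylase, had best scores of 9.62 (percentile 83.4) and 18.3 (percentile 92.6). FBXO32, the gene left out of the rule, had 2 peaks in each list, the best of them at rank 1 in both, with scores of 188.3 and 387.9. These values were not tested.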
